A study of Rattus norvegicus with 145 samples.

Results

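Histone genes were examined in the liver of Wistar rats given acetamide, an amide found in food that causes liver tumors in rats. They were taken as every row of the count tables whose symbol began with Hist1h to Hist4h, H2af, H3f or H1f, which gave 35 of 17337 genes. Of these, 20 are replication-dependent histones (3 of class H1, 6 of H2A, 7 of H2B, 1 of H3 and 3 of H4), 8 are variants made at any time of the cell cycle, and 7 belong to germ cells. RNA was sequenced from the left liver lobe, with 5 rats in each of 29 groups. In experiment A, male Hsd:WI rats aged 9 to 10 weeks were gavaged for 7 days with water (the control) or with acetamide at 30, 100 and 300 mg/kg/day (mkd) and at most 1000 mkd, and were killed on day 8. In experiment B, male and female Crl:WI rats aged 8 to 10 weeks received water, 300, 500, 750 and 1000 mkd, or the highest dose of 1500 mkd, for 7 days (day 8) or 28 days (day 29). The experiments therefore differ in strain as well as dose, and each was a whole liver measurement in which more cells of a type and more RNA per cell cannot be told apart. The 5 control males of day 29 carry the other experiment in 1 label and were placed with experiment B by their titles.

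Replication-dependent histone genes are transcribed in S phase, when new nucleosomes are needed for the copied DNA, and their mRNAs end in a stem-loop in place of a poly(A) tail. Most variant genes give ordinary polyadenylated mRNAs and supply histones outside S phase as well. H2afx encodes H2A.X, the variant phosphorylated around DNA double-strand breaks, and its mRNA is known in both a stem-loop and a polyadenylated form. The libraries were made after poly(A) selection, so that the level of a replication-dependent gene here is that of the fraction of its mRNA that was captured, and not of its whole mRNA.

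Each rat had 15449716 to 39986531 reads assigned to genes (median, 28262376). Replicate 3 of males day 29 at 1500 mkd stood apart from all other rats in many histone genes, and results of that data set are given with and without it. At day 8 of experiment B, 7 libraries had most of their reads not assigned to a gene, and they are described with the genes they touch. The replication-dependent reads lay on few genes. Over all rats Hist1h2bh and Hist1h4b held 93.8% of them, Hist3h2a brought this to 98.3%, and 15 of the 20 genes had a median of at most 5 counts per rat. The gene with the highest mean of its class was Hist1h1d (median of 9 counts per rat) for H1, Hist3h2a (137) for H2A, Hist1h2bh (2021) for H2B, Hist2h3c2 (0) for H3 and Hist1h4b (1066) for H4. Among variants the median was 3375 counts for H3f3b, 1862 for H2afy, 1187 for H1f0, 678 for H2afz, 317 for H2afx, 116 for H2afy2 and 55 for H2afv. The variant H2afj and the germ cell genes H1fnt and H2afb3 had no count in any rat. The germ cell gene with the highest level was Hist1h1t, a linker histone of spermatocytes, at 0.232 CPM (counts scaled to the library total) on average and at most 0.644 CPM in a rat. Between 12 and 16 histone genes per data set were abundant enough to be tested, 17 in at least 1 data set and 11 in all 5. Many histone genes are near-identical copies, so that the division of reads between neighbours is uncertain for replication-dependent genes.

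The 250 bases before the RefSeq start of 5 genes that passed a test below are printed, from build GRCr8 (the counts were made on Rn6), since members of both kinds moved and their upstream sequences can be set beside each other. Capitals mark 3 motifs on either strand. The CCAAT box was searched as CCAAT, which reads ATTGG on the other strand. The TATA box was searched as TATAAA, which reads TTTATA there. The octamer was searched as ATTTGCAT, which reads ATGCAAAT there. No match of 1 motif overlapped another in these windows. H2afx lies at chr8:53568468-53568717 (+ strand), H2afz at chr2:229028845-229029094 (+), H3f3b at chr10:101757637-101757886 (-), Hist1h4b at chr17:47175996-47176245 (+) and Hist3h2a at chr10:44233033-44233282 (+).
H2afx: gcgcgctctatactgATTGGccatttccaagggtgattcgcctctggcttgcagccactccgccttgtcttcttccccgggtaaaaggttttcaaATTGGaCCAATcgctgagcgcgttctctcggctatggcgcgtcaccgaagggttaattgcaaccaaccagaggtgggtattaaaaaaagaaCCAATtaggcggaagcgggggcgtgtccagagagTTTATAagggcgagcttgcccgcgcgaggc
H2afz: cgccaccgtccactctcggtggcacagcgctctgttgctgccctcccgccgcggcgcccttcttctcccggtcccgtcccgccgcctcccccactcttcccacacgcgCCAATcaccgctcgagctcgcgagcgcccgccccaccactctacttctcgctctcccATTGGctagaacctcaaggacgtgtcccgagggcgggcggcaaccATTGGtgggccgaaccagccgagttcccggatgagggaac
H3f3b: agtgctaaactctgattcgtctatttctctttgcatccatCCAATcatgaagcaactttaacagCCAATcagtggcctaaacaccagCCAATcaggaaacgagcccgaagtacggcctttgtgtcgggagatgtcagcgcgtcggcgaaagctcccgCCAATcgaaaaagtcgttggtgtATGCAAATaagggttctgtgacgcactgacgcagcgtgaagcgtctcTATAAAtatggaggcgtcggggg
Hist1h4b: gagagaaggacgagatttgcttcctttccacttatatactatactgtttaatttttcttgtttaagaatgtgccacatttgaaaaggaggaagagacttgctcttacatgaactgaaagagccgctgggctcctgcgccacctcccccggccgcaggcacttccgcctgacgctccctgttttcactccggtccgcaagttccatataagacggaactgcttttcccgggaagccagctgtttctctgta
Hist3h2a: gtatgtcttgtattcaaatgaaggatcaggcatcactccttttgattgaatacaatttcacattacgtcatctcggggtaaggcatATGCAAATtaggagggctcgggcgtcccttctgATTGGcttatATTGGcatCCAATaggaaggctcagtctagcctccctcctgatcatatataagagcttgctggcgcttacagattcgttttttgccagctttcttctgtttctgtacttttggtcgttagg

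The H2afx window held 4 CCAAT matches and 1 TATAAA match, the latter on the reverse strand 30 bases before the start. H3f3b held 4 CCAAT matches, 1 TATAAA and 1 octamer, and H2afz held 3 CCAAT matches and neither of the others. Hist3h2a held 3 CCAAT matches and 1 octamer, whereas none of these letters occurred in the Hist1h4b window. Of the 31 members with a window, CCAAT occurred in 14 of 16 replication-dependent, 5 of 8 variant and 6 of 7 germ cell genes, against 34% of 33469 promoters. TATAAA occurred in 9, 2 and 2 of the same genes (12.9% of promoters), and the octamer in 6, 1 and 2 (1.56%). Windows that overlap count the same stretch for both genes. Those of the germ cell genes Hist1h2aa and Hist1h2ba share 239 bases and hold all germ cell matches of TATAAA and the octamer. The octamer of Hist3h2a is likewise that of Hist3h2bb. A match is a stretch of letters and not a measured binding site. The Hist3h2a window shares 217 bases with that of Hist3h2bb, an H2B gene on the opposite strand. Counts over all rats were 23988 for Hist3h2a and 10 for Hist3h2bb, so that neighbouring genes with nearly the same upstream bases were detected very differently.

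H2afx was the histone gene called up in the most data sets, although its calls at day 29 depended on single rats. At the highest dose it was called in experiment A and in both sexes at day 29. Its level rose with dose in these and in males day 8. The call in males day 29 was lost without replicate 3 of the highest dose. That in females day 29 was lost without control replicate 4, control replicate 5 or replicate 2 of the highest dose. The rise with dose in males day 8 was also lost with single rats left out. A gene was called at a dose when the adjusted p was at most 0.05 and the fold change at least 1.5, and by dose trend (the log2 slope per 1000 mkd) by the adjusted p alone. In experiment A at 1000 mkd 3 of 12 histone genes tested were called, all up (H2afx, Hist1h2bh and Hist1h4b), where 14.0% of all genes were called up.

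In experiment A, control rats had 9.33, 10.5, 9.72, 11.4 and 11.9 CPM of H2afx. At 300 mkd the 5 rats had 8.75, 18.8, 8.46, 12.7 and 10.1 CPM. Rats given 1000 mkd had 13.9, 24.8, 13.5, 27.2 and 16.0 CPM. Each of the 5 rats at 1000 mkd was above every control, while the 300 mkd group ranged from below the lowest control to above the highest. The group means were 10.6 ± 1.09 and 19.1 ± 6.44 CPM (SD, n = 5), and the change was 0.85 ± 0.22 (SE) on the log2 scale or 1.81-fold, with an adjusted p of 0.00572. The slope on dose was 0.97 ± 0.17 per 1000 mkd (adjusted p = 6.37e-05).

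In males day 29 the controls had 9.77, 8.89, 7.82, 10.5 and 10.5 CPM of H2afx. At 750 mkd the rats had 12.4, 15.9, 13.4, 14.9 and 14.7 CPM, and at 1000 mkd 10.6, 16.8, 15.5, 12.8 and 14.3 CPM. Those given 1500 mkd had 13.8, 13.3, 152.1, 14.4 and 13.6 CPM. No rat at 750, 1000 or 1500 mkd lay within the control range, and 1 rat at 1500 mkd stood far from its 4 group mates. With all rats the log2 fold change at 1500 mkd was 2.13 ± 0.47, or 4.36-fold (adjusted p = 0.0113). Without that rat, replicate 3, it was 0.47 ± 0.13 (adjusted p = 0.0249), which passes the adjusted p and not the fold change of 1.5. The slope was 1.40 ± 0.25 (adjusted p = 0.000395) with all rats and 0.41 ± 0.09 (adjusted p = 0.00156) without replicate 3. At 1500 mkd 3 of 13 histone genes tested were called with all rats (3.16% of all genes called up) and 0 without replicate 3 (1.12%).

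Female controls of day 29 had 10.9, 12.6, 16.2, 8.56 and 7.24 CPM of H2afx and rats at 1500 mkd had 18.1, 25.5, 19.8, 14.8 and 12.3 CPM. The groups overlapped, with 3 of 5 rats above every control. The log2 fold change was 0.71 ± 0.20 or 1.63-fold (adjusted p = 0.0158), and H2afx was the 1 histone gene called of 12 tested (9.55% of all genes called up). The call was lost when control replicate 4 (adjusted p = 0.0540), control replicate 5 (adjusted p = 0.0542) or replicate 2 of the highest dose (adjusted p = 0.0820) was left out. The slope was 0.49 ± 0.11 (adjusted p = 0.00166).

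At day 8 in experiment B no histone gene was called at 1500 mkd in either sex by edgeR, of 12 tested in males (0.142% of all genes called up) and 16 in females (0.522%). At an unadjusted p under 0.05 there were 1 and 2, and DESeq2 called 0 in each. In males day 8, H2afx was at 7.67, 8.19, 8.51, 10.6 and 8.43 CPM in controls and at 10.4, 10.4, 13.6, 10.7 and 13.9 CPM at 1500 mkd. Only 3 of the 5 dosed rats were above every control. The log2 fold change was 0.44 ± 0.16 (adjusted p = 0.230), whereas the slope of 0.38 ± 0.10 passed (adjusted p = 0.0315). That slope was lost without control replicate 1 (adjusted p = 0.0632) or replicate 3 of the highest dose (adjusted p = 0.0731). In females day 8 the controls had 9.20, 10.3, 11.4, 13.6 and 7.30 CPM and rats at 1500 mkd had 12.6, 11.9, 10.1, 19.9 and 10.2 CPM. The groups overlapped with 1 rat above every control, and neither the fold change (log2, 0.32 ± 0.22, adjusted p = 0.544) nor the slope (0.30 ± 0.14, adjusted p = 0.201) passed.

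**Figure D1:**
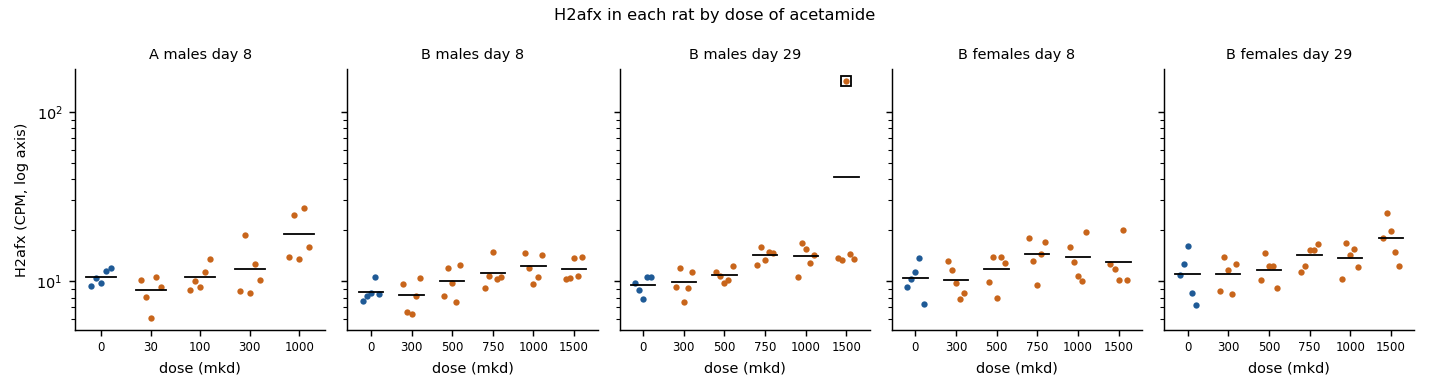
H2afx in CPM (log axis) against dose in mkd (doses evenly spaced) for each of the 5 data sets, 1 point per rat, controls in blue and dosed rats in orange, with a horizontal line at each group mean. The 5 rats of experiment A at 1000 mkd lie above all controls, and the black square is replicate 3 of males day 29 at 1500 mkd, at 152.1 CPM.

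The other variants moved less. H2afz encodes H2A.Z, a variant of nucleosomes at promoters that is made in proliferating and resting cells. Its controls in females day 29 had 21.4, 11.8, 15.9, 18.6 and 20.4 CPM and rats at 1500 mkd had 26.1, 21.8, 21.1, 30.1 and 28.9 CPM. All but 1 of the dosed rats were above every control, and that rat fell just short of the highest control. The log2 fold change of 0.54 ± 0.15 (1.45-fold) had an adjusted p of 0.0146 and missed the fold change criterion, and its slope was 0.33 ± 0.10 (adjusted p = 0.0179). Among males day 29, H2afz was at 24.6, 23.1, 22.3, 23.8 and 20.2 CPM in controls and at 29.5, 30.3, 95.8, 25.8 and 18.3 CPM at 1500 mkd. The same replicate 3 was high and 1 dosed rat was the lowest of both groups. The slope of H2afz was 0.47 ± 0.16 (adjusted p = 0.0301) with replicate 3 and 0.09 (adjusted p = 0.586) without it. It was also lost without control replicate 1, 3, 4 or 5 (adjusted p = 0.0548, 0.0638, 0.0610 and 0.0544). In experiment A the means of H2afz were 33.5 CPM in controls and 29.6 CPM at 1000 mkd (adjusted p = 0.631).

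H3f3b encodes H3.3, the variant deposited on transcribed genes throughout the cell cycle. In experiment A it was at 89.2, 107.6, 113.0, 112.8 and 120.5 CPM in controls and at 107.5, 174.8, 99.8, 216.0 and 157.6 CPM at 1000 mkd. Of the dosed rats 3 were above every control and the other 2 lay within the control range. The log2 fold change of 0.48 ± 0.18 (1.39-fold) had an adjusted p of 0.0437, short of the fold change criterion, and the slope was 0.51 ± 0.14 (adjusted p = 0.00363).

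H1f0, a linker histone known for accumulating in cells that have stopped dividing, fell with dose in experiment A. Controls had 41.2, 45.7, 52.5, 39.9 and 52.6 CPM and rats at 1000 mkd had 44.6, 35.6, 36.8, 29.7 and 46.0 CPM, with 3 of the 5 below every control. The slope was -0.38 ± 0.15 (adjusted p = 0.0421), although the mean at 300 mkd, 56.9 CPM, was above that of controls, 46.4 CPM. On the rank of the dose the slope was -0.04 (adjusted p = 0.575), and on dose it was lost without replicate 2, 3 or 4 of the highest dose (adjusted p = 0.135, 0.0925 and 0.190). H2afv, the other H2A.Z gene, also fell in experiment A, from 1.79, 2.83, 2.34, 1.84 and 2.43 CPM in controls to 2.21, 1.34, 1.77, 1.68 and 1.49 CPM at 1000 mkd. All but 1 of the dosed rats were below every control, and the slope was -0.49 ± 0.15 (adjusted p = 0.0106) on dose and -0.07 (adjusted p = 0.275) on its rank. It was lost without replicate 2 of the highest dose (adjusted p = 0.0600).

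H2afy and H2afy2 encode macroH2A proteins, which mark silent chromatin, and neither passed a test in any data set. Control and highest dose means of H2afy were 65.2 and 57.5 CPM in experiment A, 68.5 and 63.9 CPM in males day 8, 69.8 and 66.5 CPM in males day 29, 72.0 and 66.0 CPM in females day 8, and 67.4 and 65.7 CPM in females day 29. The adjusted p at the highest dose lay between 0.149 and 0.749. For H2afy2 the corresponding means were 3.59 and 2.74 CPM, 3.11 and 3.43 CPM, 3.28 and 3.82 CPM, 6.16 and 5.98 CPM, and 6.98 and 5.43 CPM, with an adjusted p between 0.235 and 0.949. H2afy ranged from 50.4 to 78.8 CPM over all rats, so that its highest rat was under 2 times its lowest.

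Among replication-dependent genes, 2 rose at the highest dose in experiment A and 2 in males day 29 by edgeR with its filter, and none was called in the other data sets. The count rests on that filter and tool. In experiment A DESeq2 called 9 and edgeR with no filter 11, all up, and in males day 29 the counts were 4 and 7, all up. More histone genes were open to these calls. DESeq2 gave an adjusted p to 26 in experiment A and 15 in males day 29, against 12 and 13 tested with the filter. The shares of all genes called by DESeq2 or with no filter are not given here. With no filter 1 was called in females day 29, Hist1h1a. The genes added in experiment A by DESeq2 were Hist1h1b, Hist1h2ail1, Hist1h2an, Hist1h2bd, Hist1h2bl, Hist1h2bo and Hist3h2ba, all of low counts. Hist1h2ail1, for example, had 6, 3, 2, 3 and 4 counts in controls and 12, 53, 6, 28 and 41 at 1000 mkd. Hist1h2bh encodes a core histone H2B and had the highest counts of this kind. In experiment A it was at 62.3, 73.3, 63.1, 70.1 and 47.5 CPM in controls and at 73.7, 138.0, 71.9, 111.0 and 141.1 CPM at 1000 mkd. All but 1 of the dosed rats were above every control, and 2 of the 5 stayed close to the control range. The log2 fold change was 0.76 ± 0.20, or 1.69-fold (adjusted p = 0.00741), and the slope 0.71 ± 0.16 (adjusted p = 0.000715).

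Hist1h4b encodes a core histone H4. Controls of experiment A had 32.4, 40.3, 35.5, 34.8 and 31.3 CPM and rats at 1000 mkd had 31.9, 71.5, 36.8, 69.3 and 67.4 CPM. In 3 rats the level was well above all controls and in 2 it was within their range, and these 2, replicates 1 and 3, were also the lowest for Hist1h2bh and H2afx. The log2 fold change was 0.67 ± 0.25 or 1.59-fold (adjusted p = 0.0421), the slope 0.66 (adjusted p = 0.00722), and the call at 1000 mkd was lost in 9 of 14 alternatives, with an adjusted p between 0.0125 and 0.121 over all 14. Of these 9, 8 left out 1 rat, namely each control (adjusted p between 0.0511 and 0.0801) and replicates 2, 4 and 5 of the highest dose (0.0899 to 0.121).

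Hist1h4b in males day 29 was at 27.8, 32.6, 24.9, 44.6 and 30.8 CPM in controls and at 43.6, 49.3, 121.3, 38.5 and 34.6 CPM at 1500 mkd. Hist3h2a, a core histone H2A gene, was at 4.97, 3.75, 3.53, 4.27 and 4.75 CPM in controls and at 5.27, 5.68, 45.9, 5.31 and 4.23 CPM at 1500 mkd. In both genes replicate 3 lay far above the rest and the lowest dosed rat lay within the control range. Log2 fold changes were 0.84 ± 0.26 for Hist1h4b (adjusted p = 0.0482) and 1.65 ± 0.44 for Hist3h2a (adjusted p = 0.0249). Without replicate 3 they were 0.30 (adjusted p = 0.325) and 0.20 (adjusted p = 0.449), and neither was called. The call of Hist1h4b was lost in 10 of 14 alternatives, among them DESeq2 size factors (adjusted p = 0.0574), no filter (0.0745), control replicate 1, 2, 3 or 5 left out (0.0830 to 0.131) and replicate 1 or 2 of the highest dose left out (0.0658 and 0.0607). That of Hist3h2a was also lost without control replicate 2, 3 or 4 (adjusted p = 0.0653, 0.0619 and 0.0525). Hist1h2bh, at 67.2, 65.8, 275.1, 93.2 and 98.0 CPM against 55.6, 87.0, 63.5, 81.7 and 84.1 CPM in controls, was not called with all rats (adjusted p = 0.102).

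By dose trend 3 replication-dependent genes passed in males day 29 with all rats, at 0.47 for Hist1h4b (adjusted p = 0.0239), 0.96 for Hist3h2a (adjusted p = 0.00704) and 0.42 for Hist1h2bh (adjusted p = 0.0428). Without replicate 3 they were 0.14 (adjusted p = 0.379), 0.06 (adjusted p = 0.697) and 0.03 (adjusted p = 0.842). The slope of Hist1h4b was also lost without control replicate 1 or 3 (adjusted p = 0.0542 and 0.0618), and that of Hist1h2bh without control replicate 1, 3 or 4 or replicate 5 of the highest dose (adjusted p between 0.0582 and 0.0930). Where H2afx and H2afz rose with dose, in females day 29, the means of controls and of rats at 1500 mkd were 108.0 and 103.7 CPM for Hist1h2bh, 58.5 and 61.8 CPM for Hist1h4b, and 5.03 and 6.34 CPM for Hist3h2a. In males day 8 they were 50.5 and 51.2 CPM, 26.5 and 25.3 CPM, and 4.06 and 4.43 CPM in the same order. In females day 8 they were 83.9 and 99.4 CPM, 47.8 and 49.7 CPM, and 4.70 and 5.80 CPM. None of these 9 pairs passed. In experiment A, Hist3h2a was at 6.01, 19.3, 4.46, 9.48 and 10.6 CPM at 1000 mkd against a control mean of 6.76 CPM (adjusted p = 0.186).

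**Figure D2:**
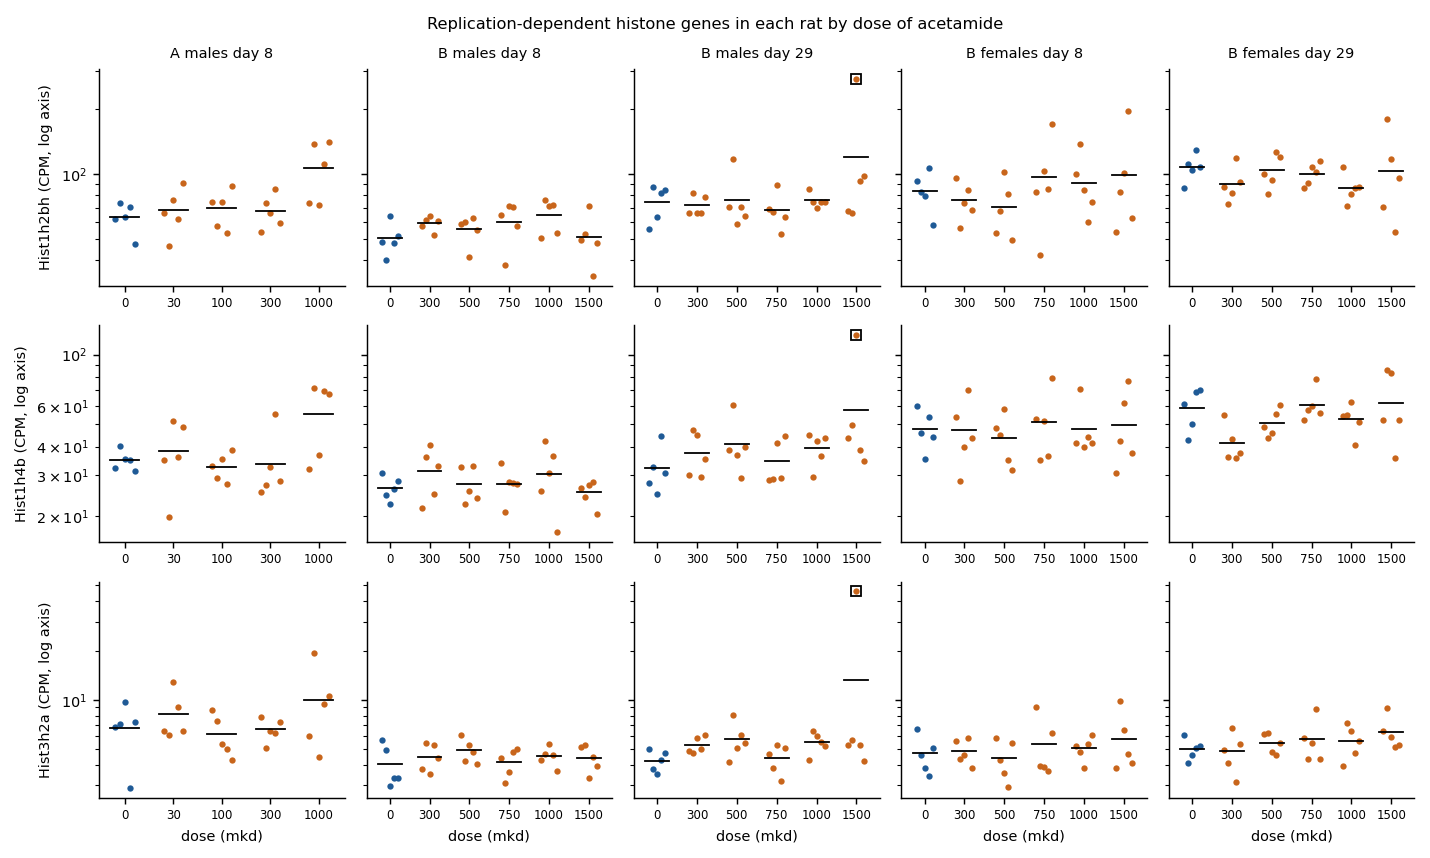
Hist1h2bh, Hist1h4b and Hist3h2a in CPM (log axis) against dose in mkd (doses evenly spaced) for each data set, 1 point per rat, controls blue and dosed rats orange, with lines at the group means. The black square marks replicate 3 of males day 29 at 1500 mkd, which at 275.1, 121.3 and 45.9 CPM was the highest of all rats for each of the 3 genes.

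By dose trend 6 of 12 histone genes passed in experiment A, of which 4 rose (H2afx, H3f3b, Hist1h2bh and Hist1h4b) and 2 fell (H1f0 and H2afv), where 23.5% of all genes rose and 22.4% fell. Of 13 genes in males day 29, 5 rose and 0 fell (13.9% and 10.6% of all genes), and without replicate 3 only H2afx rose (10.0%). Among females day 29, 2 of 12 rose and 0 fell (15.4% and 11.9%). In males day 8, 1 of 12 rose and 0 fell (1.98% and 0.540%), and in females day 8, 0 of 16 passed (3.76% and 1.69%), with 3 at an unadjusted p under 0.05.

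The median log2 fold change at the highest dose over the replication-dependent and the variant genes tested was 0.62 (4 genes) and -0.18 (7 genes) in experiment A. It was 0.95 (5) and 0.21 (7) in males day 29, and 0.20 and 0.08 there without replicate 3. It was -0.07 (5) and 0.08 (7) in males day 8, 0.31 (7) and -0.02 (7) in females day 8, and 0.08 (5) and -0.04 (7) in females day 29. Over all genes tested the median lay between -0.0039 and 0.07. These medians leave out the replication-dependent genes with too few counts to be tested, at least 13 of 20 in each data set.

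**Figure D3:**
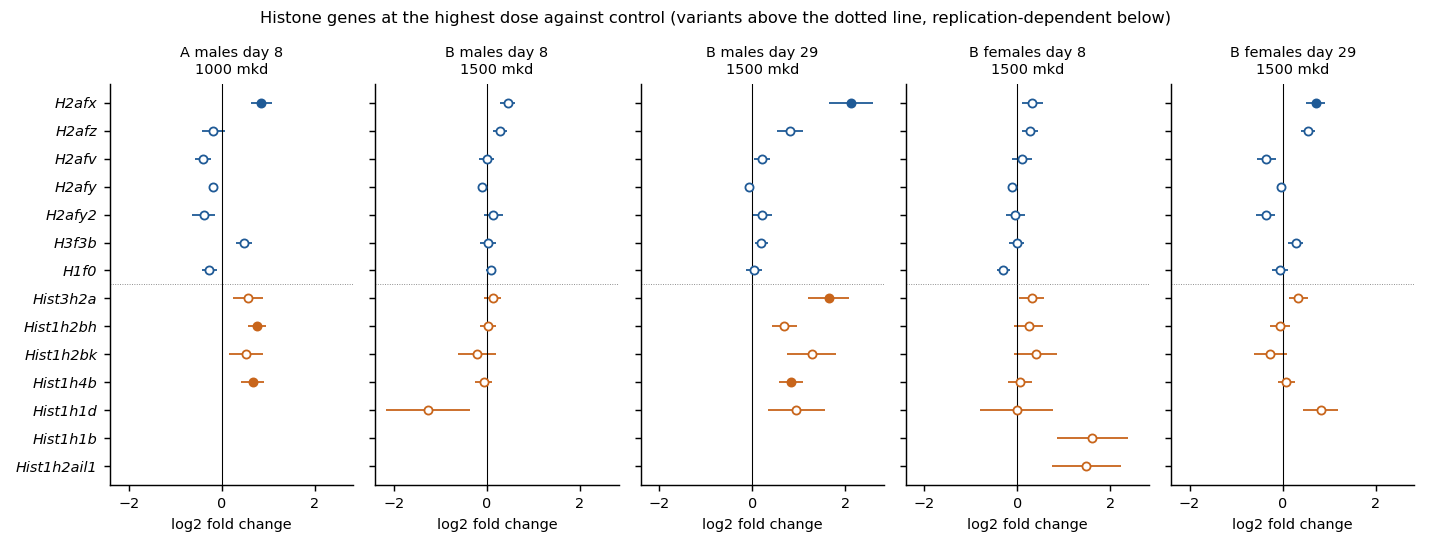
Log2 fold change at the highest dose with its SE for each variant and replication-dependent gene tested, by data set, variants in blue above the dotted line and replication-dependent genes in orange below it, filled where the gene was called. Filled points are H2afx, Hist1h2bh and Hist1h4b in experiment A, H2afx, Hist1h4b and Hist3h2a in males day 29, and H2afx in females day 29.

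Replicate 3 of males day 29 at 1500 mkd stood apart in most replication-dependent genes. It was the highest of all rats for 14 of 20 replication-dependent genes and for 2 of 7 variants counted, H2afx and H2afz. Such places compare CPM of data sets that were scaled separately, and some of the 14 rested on few counts, such as 13 of Hist1h2ak. The share of all genes that were highest in this rat was not counted, so these counts are not shown to be particular to histone genes. Its 45.9 CPM of Hist3h2a rested on 1702 counts and its 152.1 CPM of H2afx on 5634 counts. The next highest rats had 27.2 CPM of H2afx, 47.8 CPM of H2afz, 196.6 CPM of Hist1h2bh, 85.7 CPM of Hist1h4b and 19.3 CPM of Hist3h2a. Some replication-dependent genes were counted in it and in none of its group mates, with 135 counts of Hist1h2bd, 81 of Hist3h2ba and 39 of Hist1h1a against 0 in each of the 4 other rats of its group. The other variants ranked lower in this rat, where H2afy was at 67.9 CPM (place 56 from the top), H2afy2 at 3.13 CPM (place 112), H2afv at 2.48 CPM (place 19), H1f0 at 57.4 CPM (place 6) and H3f3b at 202.3 CPM (place 4). Mki67, the gene of the proliferation antigen Ki-67, was at 243.4 CPM against at most 54.5 CPM in any other rat, and Cenpa, the centromeric H3 variant, at 13.4 CPM against at most 3.92 CPM. The study had found this animal to be an outlier in Ki67 labeling of hepatocytes and left it out of its dose modeling. It reported no rise in the animal's mitotic index, ALT, AST or liver weight. The summed level of 8 hepatocyte markers was 98680 CPM in this rat and 159300 to 202700 CPM in its 4 group mates, and that of the erythroid markers 23.6 CPM. Whether these levels share a cause was not tested.

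The 17 replication-dependent genes other than Hist1h2bh, Hist1h4b and Hist3h2a were too low to describe singly and were summed. In experiment A the controls had 1.26, 2.03, 1.78, 1.05 and 1.71 CPM and rats at 1000 mkd had 2.38, 6.47, 2.28, 5.02 and 6.01 CPM, from 35 to 56 and 77 to 368 counts. All 5 dosed rats were above every control. Male controls of day 29 had 0.730 to 1.75 CPM and rats at 1500 mkd had 1.82, 1.33, 24.5, 1.80 and 1.55 CPM, of which the 24.5 CPM of replicate 3 came from 908 counts against 31 to 60 in the others. Controls of females day 29 had 1.79, 1.57, 1.47, 3.42 and 1.24 CPM and rats at 1500 mkd had 1.47, 4.89, 2.93, 1.89 and 2.00 CPM, with overlap. In females day 8 at 1500 mkd the values were 1.40, 2.60, 2.89, 8.04 and 3.68 CPM, and the 8.04 CPM belonged to replicate 4, which also had the highest H2afx of its group.

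This sum was also high in libraries with many reads not assigned to a gene. Such reads were counted together, whatever the reason they were not assigned. At day 8 of experiment B, 7 libraries had over 50% of their reads not assigned to a gene (50.1% to 67.1%, against 35.9% to 49.8% in the other 53). Their summed level of the 17 genes was 2.88 to 8.70 CPM (median, 3.96), against a median of 1.52 CPM (0.764 to 8.04) in the others. Hist1h1d, a linker histone gene, was at 1.21 to 5.68 CPM (median, 2.10) in the 7, against a median of 0.385 CPM and at most 1.60 CPM in the other 53. Other RNAs that lack a poly(A) tail (among them Rmrp and Terc, the RNAs of RNase MRP and telomerase) summed to 5.92 to 20.6 CPM in the 7 and to at most 4.36 CPM in the 53, without overlap. The 3 high replication-dependent genes did not separate in this way, since Hist1h2bh had a median of 63.9 CPM in the 7 and 63.8 CPM in the 53, Hist1h4b 40.5 and 34.0 CPM, and Hist3h2a 3.54 and 4.59 CPM. The 7 were control replicates 4 and 5 and replicates 2 and 3 at 300 mkd in males, and control replicate 4, replicate 4 at 300 mkd and replicate 2 at 1000 mkd in females. Without them, in an alternative added after the values were seen, the H2afx slope in males day 8 was 0.36 (adjusted p = 0.0893) and no histone gene passed any test at day 8 of experiment B. In experiment A the tail-less RNAs summed to 0.299 to 0.976 CPM at 1000 mkd and 0.692 to 2.23 CPM in controls. They were at 0.594 CPM in replicate 3 of males day 29 at 1500 mkd and at 0.512 CPM in replicate 4 of females day 8 at 1500 mkd. The part of these RNAs in the histone gene sums was not tested.

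**Figure D4:**
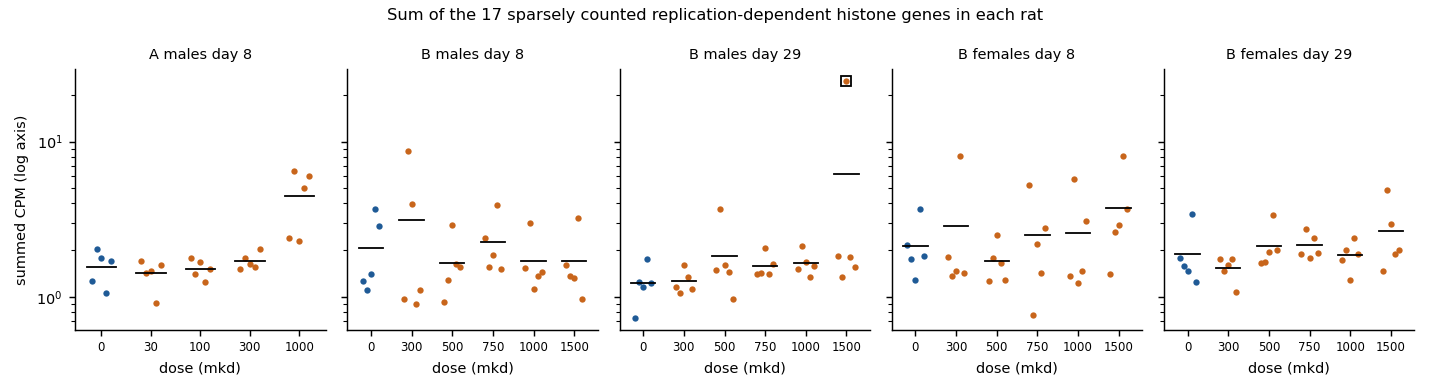
Summed CPM (log axis) of the 17 replication-dependent genes with low counts against dose in mkd (doses evenly spaced), by data set, 1 point per rat, controls blue and dosed rats orange, with lines at the group means. In experiment A the 5 rats at 1000 mkd (2.28 to 6.47 CPM) lie above all 5 controls (1.05 to 2.03 CPM), and the black square is the rat at 24.5 CPM.

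Genes that carry, place or process histones were taken from a list of 38 histone supply genes, of which 32 were tested in each data set. At the highest dose 5 of 32 were up-regulated in experiment A (14.0% of all genes), 4 of 32 in males day 29 (3.16%), 4 of 32 in females day 29 (9.55%) and 0 in each sex at day 8, and none was down-regulated. In experiment A and females day 29 the counts were close to the share over all genes, and without replicate 3 none of 32 was called in males day 29 (1.12%). Without replicate 3 the count in males day 29 was 0. By dose trend 12 of 32 rose and 2 fell in experiment A (23.5% and 22.4% of all genes), and 11 rose and 1 fell in females day 29 (15.4% and 11.9%). In males day 29, 5 rose (13.9%), in females day 8, 3 rose (3.76%), and in males day 8, 1 rose (1.98%).

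Asf1b, a chaperone that hands new H3 and H4 to the assembly machinery, was at 0.421, 0.581, 0.227, 0.331 and 1.02 CPM in controls of experiment A and at 2.15, 3.41, 1.72, 4.32 and 2.93 CPM at 1000 mkd. Females day 29 had 0.467, 0.426, 0.419, 0.163 and 0.640 CPM as controls and 2.63, 4.53, 4.11, 2.29 and 1.11 CPM at 1500 mkd. In both data sets every dosed rat was above every control, and log2 fold changes were 2.48 (adjusted p = 0.00243) and 2.79 (adjusted p = 0.000131). For males day 29 it was 3.05 (adjusted p = 0.0132), and 0.99 (adjusted p = 0.158) without replicate 3.

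Chaf1b, a subunit of the chromatin assembly factor CAF-1, rose by 1.93 on the log2 scale in experiment A (adjusted p = 0.000752) and by 2.78 in females day 29 (adjusted p = 0.000325). Tonsl, which binds new H4 behind replication forks, rose by 1.89 (adjusted p = 0.000327) and 1.64 (adjusted p = 0.00317). In males day 29 Chaf1b was at 2.12 (adjusted p = 0.0180) and Tonsl at 1.36 (adjusted p = 0.0433) with all rats, and at 1.17 (adjusted p = 0.0873) and 0.48 without replicate 3. Mms22l, the partner of Tonsl, rose in females day 29 (log2, 1.44, adjusted p = 0.00365), and Daxx, a chaperone of H3.3, in experiment A (log2, 0.86, adjusted p = 0.00151). Hjurp, the chaperone of Cenpa, rose in experiment A (2.84-fold, adjusted p = 0.00339), as did Cenpa itself (log2, 0.88, adjusted p = 0.0444). The call of Cenpa was lost in 9 of 14 alternatives, with no filter and without control replicate 1, 2, 3 or 4 or replicate 1, 2, 4 or 5 of the highest dose, where the adjusted p reached 0.102. Hjurp in males day 29 was at 1.79 (adjusted p = 0.0330) and Cenpa at 1.89 (adjusted p = 0.0376) with all rats, and at 0.44 and 0.19 without replicate 3. These calls in males day 29 were lost in 9 of 14 alternatives for Tonsl, 6 for Hjurp, 8 for Cenpa, 2 for Chaf1b and 1 for Asf1b. Tonsl and Cenpa were lost without any one of the 5 controls, Hjurp without control replicate 1, 2, 3 or 4 and Chaf1b without control replicate 2, and the loss without replicate 3 of the highest dose was common to all 5. None of Hist1h2bh, Hist1h4b and Hist3h2a was called in females day 29, where Asf1b, Chaf1b, Tonsl and Mms22l were. Hjurp (log2, -0.04, adjusted p = 0.928) and Cenpa (log2, 0.67, adjusted p = 0.179) were not called there either.

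Proliferation was read from 26 genes of DNA replication and the cell cycle, all of them tested, Mki67 among them. At the highest dose 18 of 26 were up-regulated in experiment A (14.0% of all genes), 21 in females day 29 (9.55%) and 12 in males day 29 (3.16%), of which 1 was left without replicate 3 (1.12%). At day 8 of experiment B the count was 1 in males (Tk1, thymidine kinase) and 1 in females (Mki67). Mki67 was at 3.58, 6.57, 2.68, 7.04 and 13.1 CPM in controls of experiment A and at 18.5, 28.0, 16.3, 47.6 and 24.3 CPM at 1000 mkd. Females day 29 had 4.28, 4.46, 5.20, 4.24 and 6.08 CPM as controls and 33.8, 31.3, 37.6, 34.8 and 10.1 CPM at 1500 mkd. The dosed and control rats did not overlap in either, and log2 fold changes were 2.03 (adjusted p = 0.00368) and 2.61 (adjusted p = 5.26e-05). Mki67 also passed in females day 8 (log2, 2.05, adjusted p = 0.0423), but this was lost in 10 of 15 alternatives. Among them were each control left out (adjusted p between 0.0638 and 0.142) and replicate 2, 3 or 4 of the highest dose left out (0.0983 to 0.156). The call was also lost without the libraries with over 50% of reads not assigned to a gene (adjusted p = 0.0585). In 4 of the 5 highest dose groups the rat with the most H2afx was the rat with the most Mki67, namely replicate 4 of experiment A, replicate 5 of males day 8, replicate 3 of males day 29 and replicate 4 of females day 8. For females day 29 they differed, with H2afx highest in replicate 2 and Mki67 in replicate 3. In the control groups the same rat was highest for both in 2 of 5, experiment A and females day 8. How many other genes were highest in the rat with the most Mki67 was not counted, so the match is not shown to be particular to H2afx.

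**Figure D5:**
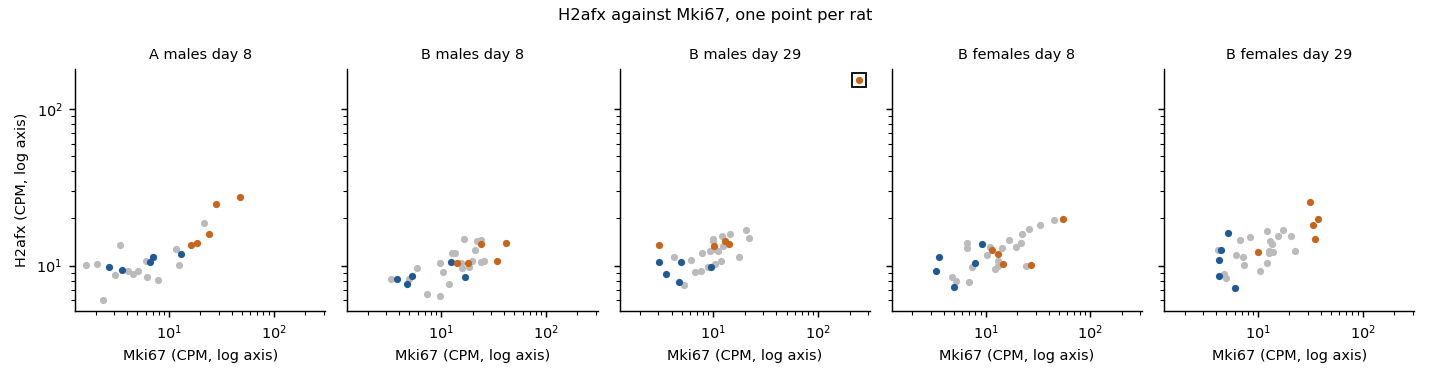
H2afx CPM against Mki67 CPM (both log axes) for each rat, by data set, controls blue, highest dose orange and doses between grey. The black square, replicate 3 of males day 29 at 1500 mkd, lies at 243.4 CPM of Mki67 and 152.1 CPM of H2afx, and the points are a description of rats that share dose and depth, with no test.

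Markers of some cell types moved in the same comparisons. Lists of T and NK cells, macrophages, hepatocytes and erythroid cells are described, in experiment A and females day 29. Lists of B cells, neutrophils, cholangiocytes, stellate cells and endothelial cells were also read, and they and the other data sets are not described here. In experiment A, where 14.0% of all genes were called up and 7.45% down, all 8 T and NK cell markers tested rose at 1000 mkd, with a summed level of 39.9 to 73.2 CPM against 23.7 to 28.7 CPM in controls, and 3 of 7 macrophage markers rose. Of 8 hepatocyte markers 4 fell, with a summed level of 68780 to 224100 CPM against 233100 to 312000 CPM, and 2 of 5 erythroid markers fell. In females day 29, where the shares were 9.55% and 3.54%, 3 of 6 T and NK cell markers (33.4 to 68.0 against 18.0 to 44.4 CPM) and 2 of 7 macrophage markers rose, 2 of 8 hepatocyte markers fell and 1 rose, and 3 of 5 erythroid markers fell. The 1 of 8 hepatocyte markers that rose in females day 29 is near the share of 9.55%. Lists of 5 to 8 genes are short, and no list was tested against these shares. The TMM scaling factors were 1.06 to 1.90 at 1000 mkd against 0.856 to 0.976 in controls in experiment A, and 1.04 to 1.45 at 1500 mkd against 0.735 to 1.02 in females day 29. The part of these shifts in the histone gene levels was not tested. The hepatocyte markers summed to at least 68780 CPM in every control and highest dose rat, as the label of liver would have it.

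At the lower doses no histone gene was called. Over 19 comparisons of a lower dose with its control, 0 of 248 member values were called by edgeR (0.356% of all gene values in either direction) and 12 had an unadjusted p under 0.05. For H2afx the mean at 30, 100 and 300 mkd in experiment A was 8.83 ± 1.84, 10.6 ± 1.88 and 11.8 ± 4.26 CPM (SD, n = 5), against 10.6 ± 1.09 CPM in controls. In males day 29 the means at 300, 500, 750 and 1000 mkd were 9.83 ± 1.81, 10.9 ± 1.00, 14.3 ± 1.39 and 14.0 ± 2.39 CPM against 9.51 ± 1.16 CPM. The fit of males day 29 takes in the rat at 152.1 CPM, which sets the error of H2afx at every dose. With that rat the log2 fold change was 0.59 ± 0.46 at 750 mkd (adjusted p = 0.457) and 0.56 ± 0.46 at 1000 mkd (adjusted p = 0.440). Without it, the values were 0.54 ± 0.12 (1.45-fold, adjusted p = 0.0205) and 0.51 ± 0.12 (1.42-fold, adjusted p = 0.0134), past the adjusted p and short of the fold change of 1.5. In that fit 0 of 52 member values at the lower doses were called by edgeR, with 9 at an unadjusted p under 0.05, where 2.68% of all gene values were called. In females day 29 they were 11.1 ± 2.39, 11.7 ± 2.14, 14.2 ± 2.22 and 13.8 ± 2.60 CPM against 11.1 ± 3.53 CPM. At 750 mkd 5 of 5 males and 1 of 5 females were above every control of their data set, and the means at 750 and 1000 mkd differed by less than their SD in both.

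Whether the response at 1500 mkd differed between sexes or durations was tested in a single fit of experiment B, in which 18 histone genes were tested. By edgeR none passed for females against males at day 8 (0% of all genes), females against males at day 29 (0.466%), day 29 against day 8 in males (0%) or in females (0.0169%). At an unadjusted p under 0.05 there were 0, 6, 6 and 0. The H2afx response was smaller in females than in males at day 29 by a log2 difference of -1.38 ± 0.42 (unadjusted p = 0.00131, adjusted p = 0.0792), and without replicate 3 of every group the difference was 0.42 (adjusted p = 0.425). Between day 29 and day 8 in males it was 1.66 ± 0.42 (adjusted p = 0.696), and 0.04 without replicate 3.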

How the data were processed

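Liver RNA was poly(A) selected, sequenced and, per the labels and the study's methods, trimmed with Trimmomatic, aligned to Rn6 with Bowtie2 and counted with HTSeq by the authors, whose versions are not given in the sources used here. The deposited values are raw counts of reads per gene. Rows of HTSeq that name no gene held 35.5 to 67.1% of reads in experiment B and did not enter the library totals (experiment A has no such rows). No per-sample column was left unmapped (0 left out).

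Each data set was fitted alone in edgeR 4.0.16 (R 4.3.3) with TMM scaling and filterByExpr on its groups. The quasi-likelihood F-test compared each dose with its control, and dose as a number gave the slope. Each SE given for a fold change, slope or difference is its absolute log2 value divided by the square root of F. Differences between sexes and durations were tested in a single fit of experiment B. P-values were adjusted by Benjamini and Hochberg over all genes tested. A gene was called at an adjusted p of at most 0.05 and, at a dose, a fold change of at least 1.5. CPM are counts divided by the TMM-scaled library total within a data set and are not corrected for gene length. DESeq2 1.42.0, its size factors, no filter, the rank of the dose, a replicate block and each control or highest dose rat left out were the alternatives. The fits were tested on simulated data.

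Named genes were those called at the highest dose or by trend, all variants outside germ cells, the replication-dependent gene with the highest mean of each class, the leading histone supply genes, members with no count, and Mki67 and Cenpa as reference. The members, lists and rules were chosen with earlier results of these data known. Sequences came from RefSeq (GRCr8), where 32 members matched 1 gene and 3 (Hist1h1d, Hist1h2bh and Hist1h2bl) matched more than 1.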

Additional observations from a re-analysis of the deposited data

Results flagged for a closer look

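In each control and highest dose group of 5 rats, the most distant rat was compared with the group's range for the 8 histone genes that passed a test. In 9 of 80 groups its gap to the nearest rat exceeded 0.71 of the range, a ratio that chance exceeds in about 1 group in 20, and 5 of the 9 were the same rat. That rat, replicate 3 of males day 29 at 1500 mkd, had 152.1 CPM of H2afx, 95.8 CPM of H2afz, 275.1 CPM of Hist1h2bh, 121.3 CPM of Hist1h4b and 45.9 CPM of Hist3h2a. The other 4 were single genes in other rats. Control replicate 4 of males day 8 had 10.6 CPM of H2afx (nearest rat, 8.51 CPM), and control replicate 5 of the same data set had 36.4 CPM of H2afz (nearest, 24.6 CPM). Both of these libraries had over 50% of reads not assigned to a gene. In females day 8 at 1500 mkd, replicate 4 had 19.9 CPM of H2afx (nearest, 12.6 CPM) and replicate 5 had the lowest H3f3b, 100.3 CPM (nearest, 142.8 CPM). The 8 genes were measured in the same rats and were chosen for passing a test. Hist3h2a passed only in males day 29, and not without replicate 3 at 1500 mkd. The rate of 1 group in 20 therefore cannot be set against the 9 of 80.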

How the results depend on the processing

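At the highest dose of experiment A the number of histone genes called, 3, was 10 by DESeq2 and 12 with no filter (9 and 11 of them replication-dependent), and its trend count, 6, was 17 with no filter and 3 on the rank of the dose. In males day 29 the counts with no filter were 8 at 1500 mkd and 12 by trend, and in females day 29 they were 2 and 5. DESeq2 and the fits with no filter took in more histone genes than the filtered fits. The shares of all genes they called are not given here. With no filter the median log2 fold change of replication-dependent genes was 1.39 in experiment A, 1.83 in males day 29 and 0.69 in females day 29, where it takes in genes with almost no counts. DESeq2 gave H2afx and Hist3h2a no adjusted p in males day 29, and the 4 genes it called there were Hist1h1b, Hist1h2ail1, Hist1h2an and Hist1h4b.

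Leaving out 1 rat at a time gave 2 to 6 calls at the highest dose and 4 to 10 by trend in experiment A, 0 to 4 and 1 to 6 in males day 29, 0 to 2 and 2 to 4 in females day 29, and by trend 0 to 1 in males day 8 and 0 to 2 in females day 8. Counts moved by over 1.5 times without control 3 (5), highest dose 1 (5) or 3 (6) at 1000 mkd and control 2 (10) or highest dose 3 (10) by trend in experiment A. They did so without control 1 (0) or highest dose 3 (0) by trend in males day 8, and without control 2 (1), control 3 (1) or highest dose 3 (0) at 1500 mkd and control 1 (2), control 3 (2) or highest dose 3 (1) by trend in males day 29. In females day 8 they did so by trend without control 1 (1), highest dose 1 (2) or 5 (2), and in females day 29 without control 1 (2), control 4 (0) or highest dose 3 (2) at 1500 mkd and control 4 (4) or highest dose 4 (4) by trend. Without the 7 libraries with over 50% of reads not assigned to a gene, the trend count in males day 8 was 0. The shares of all genes called with a rat or library left out are not given here, apart from males day 29 without replicate 3. Of 705 single-gene values under an alternative, 593 kept direction and side of the threshold, 104 no longer passed, 7 newly passed and 1 reversed, namely the H2afx difference of females minus males at day 29, which ran from -1.69 to 0.42 with a replicate left out and was 0.42 without replicate 3. The cause was not tested.

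Replicate numbers are those of the labels' replicate field and differ from the titles in some dose groups of experiment A. They entered no fit other than the replicate block. The correlation of same-numbered controls and highest dose rats ran from -0.327 to 0.403 and passed 0.1 in 15 of 25 pairs. Rats of different numbers were not correlated for comparison, so these values cannot show whether the numbers pair the rats. With the replicate block 2 genes were called at the highest dose and 5 by trend in experiment A, 1 and 4 in males day 29, 1 and 2 in females day 29, and 1 by trend in males day 8. Precision of the low genes is limited by their few counts.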

Other observations

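H2afy2, a macroH2A gene, was the 1 histone gene whose levels did not overlap between control females and control males of experiment B, which was found after the values were seen. The 10 control females had 5.06 to 9.48 CPM (median, 6.15) and the 10 control males 2.52 to 4.28 CPM (median, 3.20), in data sets that were scaled separately. The difference was not tested. The share of all genes that separated in this way was not counted, so the separation is not shown to be particular to H2afy2.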
